A study of Caenorhabditis elegans with 8 samples.

Results

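This account covers 4 of the 8 arrays of a spaceflight study of the worm Caenorhabditis elegans. They are the 2 arrays from worms flown on the 1g centrifuge of Shenzhou-8 and the 2 arrays from the ground control, with 1 wild-type N2 array and 1 LS292 array in each condition. LS292 carries dys-1(cx18), a mutation of the worm dystrophin gene, and has no other allele named in the labels. The arrays were taken by their labels and not by any measured value, and the comparison was paired by strain. It addresses what the flight added when weight was restored by rotation, because the centrifuged worms met space radiation (2.27 mGy) at 1g. About 100000 dauer larvae, the long-lived and stress-resistant larval stage, were loaded per flight container with fresh medium 10 h before launch. The mission lasted 16.5 days at 23 °C, and worms were frozen 7 h after landing. The ground worms spent the same 16.5 days at 23 °C in a static slot of the same hardware. They started 2 days later at another site, were not rotated, and were collected 7 h after the end, and the labels give no radiation dose for them. Rotation, launch, landing and radiation therefore differed together between the conditions and cannot be told apart.

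MicroRNAs are short RNAs that guide Argonaute proteins to partly complementary sites in messenger RNAs, which are then repressed. In worms many belong to families that share a seed, the bases that select the target, and members of a family can stand in for one another. The founding members, lin-4 and let-7, time the passage from one larval stage to the next. Other members of the let-7 family act earlier in the same pathway. These genes are also wired into the decision to enter and leave dauer.

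Whole worms gave the RNA, so fewer cells of a type and less RNA per cell cannot be told apart. Each array held 156 probes with a C. elegans name and 2145 without one, each printed as 4 spots. A value below is the median of the 4 spots' intensity above local background, in arbitrary units. A miRNA was taken as detected at 50 or more on at least 2 of the 8 arrays, which held for 20 of 156. Between 12 and 19 named probes reached 50 on each of the 4 arrays, and 8 reached it on all 4. The median named probe lay at 6.5 and 4.75 on the centrifuge arrays (N2, then LS292) and at -6.5 and -3 on the ground arrays. Among 163 probes that reached 50 on all 8 arrays, 158 of them unnamed, the median log2 ratio of centrifuge over ground was -0.63 in N2 and -0.17 in LS292. The centrifuge arrays were thus dimmer than the ground arrays at the median of these mostly unnamed bright probes. At the median named probe, which lay near background, they read slightly higher. The control spike probes also lay near background and differed the same way. Their medians were 5 and 3 on the centrifuge arrays (N2, then LS292) and -8 and -4 on the ground arrays. On the 4 arrays, 5.87% to 12.6% of spots sat on a local background more than 3 times that array's median.

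No worm miRNA passed the test between the centrifuge and the ground. Limma, fitted to all 8 arrays with terms for strain and condition, called 0 of 20 at an adjusted p under 0.05 (0% called), and 1 had an unadjusted p under 0.05. That one was miR-84, with a log2 difference of -0.39 (SE 0.10, adjusted p 0.283), lower on the centrifuge in both strains. The fitted differences were positive for 12 miRNAs and negative for 8, with a median of 0.012 and extremes of -0.44 for miR-257 and 0.36 for miR-1823. The fit used quantile-normalized log2 intensities, a scale that compresses dim probes and ties bright ones, so the spot medians are given first for every miRNA. With 1 array per strain and condition, the strains stood in for replicates, and an exact test over 2 pairs could not go below p = 0.5.

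**Figure D1:**
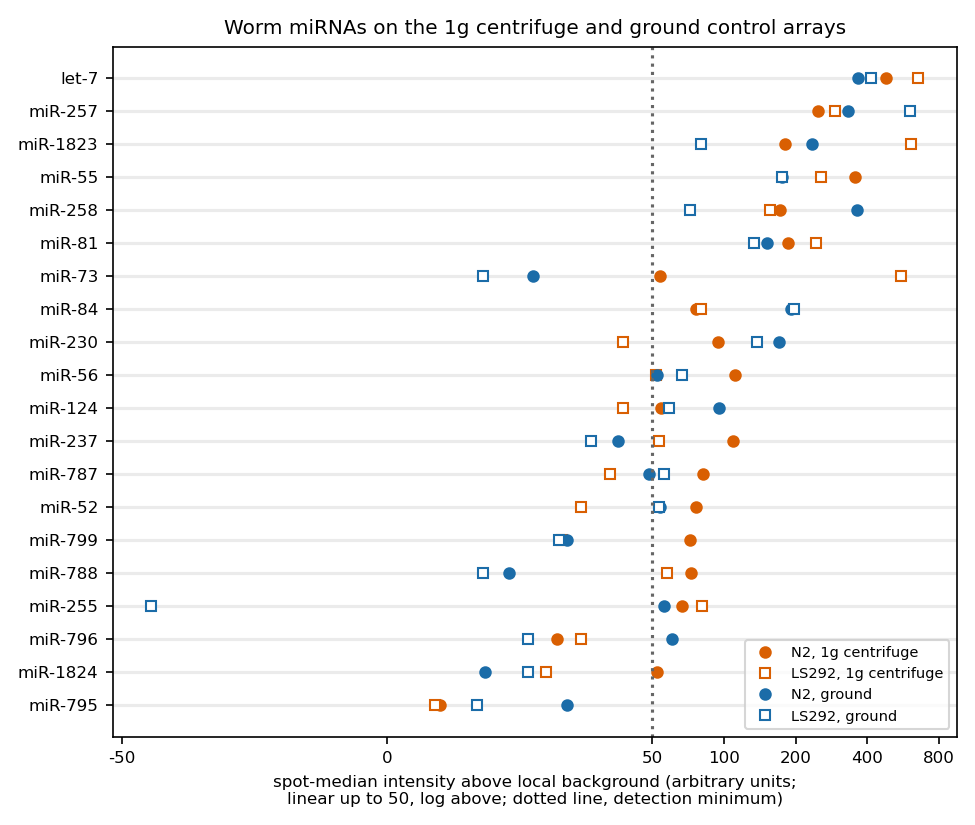
Spot-median intensity (x axis, arbitrary units, linear up to 50 and logarithmic above) of the 20 detected miRNAs on the 4 arrays; orange is the 1g centrifuge, blue the ground, filled circles N2 and open squares LS292. For miR-84, as for miR-257 and miR-230, both centrifuge points lie left of both ground points. MiR-1823 and miR-258 are ordered in opposite ways in the strains.

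MiR-84 had close values in the 2 strains and was lower on the centrifuge in both. This let-7 family member is made in the seam cells of the skin and in the vulva, and it acts with its sisters in larval timing. On the centrifuge it read 76.5 (N2) and 80 (LS292), against 190.5 and 197.5 on the ground. The groups did not overlap, and the centrifuge level was 40.2% of the ground level in N2 and 40.5% in LS292. In N2 the 4 spots read 60, 72, 81 and 486 on the centrifuge, against 171, 178, 203 and 260 on the ground. In LS292 they read 53, 73, 87 and 165 on the centrifuge, against 136, 196, 199 and 315 on the ground. In each strain 3 of the 4 centrifuge spots lay below the lowest ground spot, while the fourth N2 spot, 486, lay above every N2 ground spot.

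MiR-84 was the 1 of 20 miRNAs that was at least 2-fold lower on the centrifuge in both strains, and 0 were at least 2-fold higher in both. Over the 412 named and unnamed probes past the same filter, 3.16% were 2-fold lower in both strains and 1.94% were 2-fold higher. The N2 centrifuge array was dimmer than the N2 ground array for the bright probes, most of them unnamed (median log2 ratio -0.63). It was not dimmer for the 20 named miRNAs, whose median log2 ratio in N2 was 0.18. Of the 163 bright probes, 51 had a ratio as low as that of miR-84 in N2, and 15 did in LS292. With arrays scaled to those bright probes, the log2 differences of miR-84 were -0.88 in N2 and -1.09 in LS292. On that scale it was no longer 2-fold lower in N2. Scaled to the 5 named bright probes, which include miR-84 itself, they were -1.40 and -1.88, past 2-fold in both strains. The fitted difference stayed negative under all 24 alternatives, from -1.64 to -0.23, with adjusted p from 0.104 to 0.862. Alternatives that changed only the filter, the strain term, the prior or arrays of the other conditions cannot move the fitted difference. Its sign under those was fixed in advance.

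The other detected members of the let-7 family were let-7 and miR-795. Let-7 itself, which drives the switch from larva to adult, was the brightest named miRNA on 3 of the 4 arrays and ranked number 2 on the LS292 ground array. Its levels were 479 (N2) and 655 (LS292) on the centrifuge, against 367 and 413.5 on the ground. Both centrifuge values were above both ground values, by 1.31-fold in N2 and 1.58-fold in LS292. The spots overlapped in both strains. Those of N2 spanned -1789 to 826 on the ground, with 1 spot on a local background of 2910, and 173 to 526 on the centrifuge. In LS292, 3 of the 4 centrifuge spots (541, 769 and 1303) lay above the highest ground spot, 496. The fit gave 0.16 (SE 0.33, limma adjusted p 0.829), which turned to -0.22 without the LS292 ground array and to -0.015 without the N2 centrifuge array. It was 0.70 (SE 0.22, adjusted p 0.191) with the mean of the 4 spots, and the adjusted p of the alternatives spanned 0.191 to 0.977.

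MiR-795, listed with the let-7 family by its sequence, lay below 50 on all 4 arrays. It read 10 and 9 on the centrifuge against 34 and 17 on the ground, so no size of difference can be given. The remaining members miR-48, miR-241, miR-793 and miR-794 reached at most 8.5 on any of the 4 arrays. Of the 7 family members on the array, 3 passed the filter, of which 1 had a positive and 2 a negative fitted difference, with 0 called. Their median fitted difference was -0.056, beside 0.012 over all 20. That median is the value of miR-795 itself, which also supplies 1 of the 2 negative signs. With miR-795 below 50 on all 4 arrays, it gives no size of difference for the family.

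MiR-257, for which no role is stated here, was bright on every array of the series. It read 248.5 and 294 on the centrifuge against 331.5 and 603 on the ground. The centrifuge values were 75.0% of the ground in N2 and 48.8% in LS292. Both also lay below all 6 other arrays of the series, whose lowest value was 331.5. The spots overlapped in both strains. In N2 the ground spots ran from 20 to 1584 and enclosed the whole centrifuge range of 158 to 343. In LS292, 3 of the 4 centrifuge spots lay below the lowest ground spot, 431. Over both strains the fit gave -0.44 (SE 0.29, limma adjusted p 0.512).

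The miR-257 difference depended on how the spots were combined and on single ground arrays. With the mean of the log2 spots it was called, at -0.77 (SE 0.11, limma adjusted p 0.0095). On the main scale N2 contributed a difference of 0 and LS292 one of -0.87. Without the N2 ground array the difference was -0.92 (adjusted p 0.0161), and without the LS292 ground array it was 0.047 (adjusted p 0.900). Each of these leaves 1 ground array, which is assumed to vary like the other conditions that supply the spread. Scaled to the bright probes, the spot medians differed by log2 0.019 in N2 and -0.82 in LS292. Scaled to the 5 named bright probes, miR-257 among them, they differed by -0.50 and -1.61. The adjusted p of its alternatives spanned 0.0095 to 0.900.

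**Figure D2:**
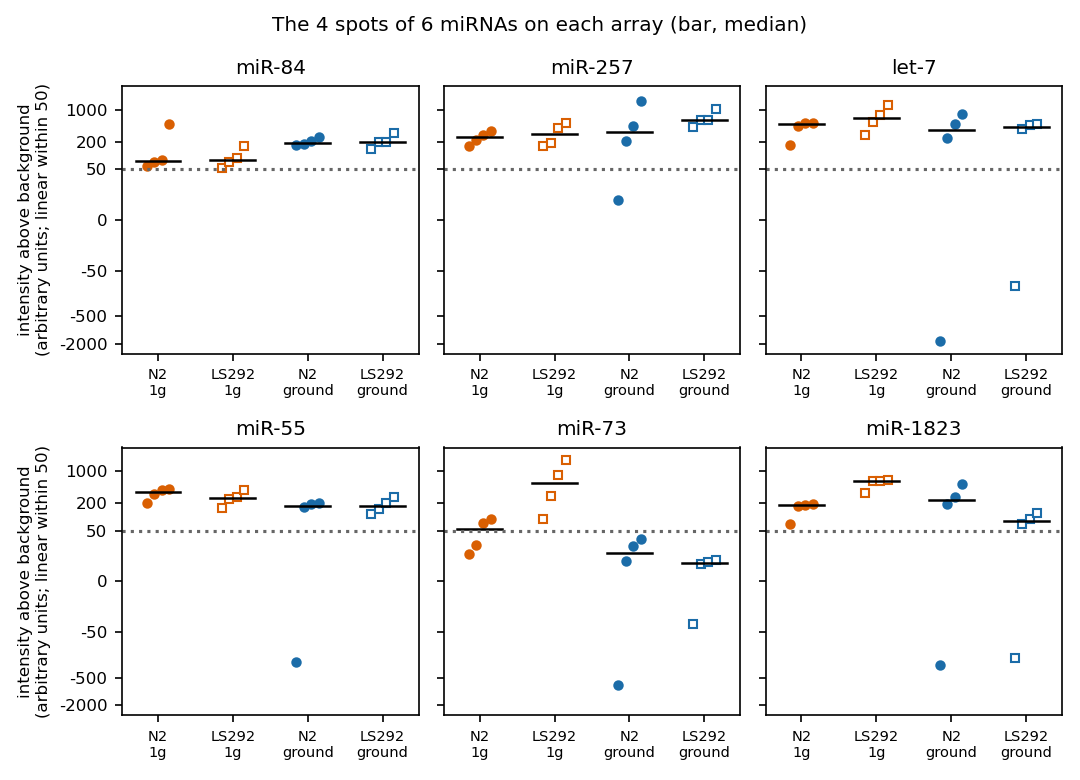
Intensity above local background (y axis, arbitrary units, linear near 0 and logarithmic beyond, on both sides) of the 4 spots of 6 miRNAs on the N2 and LS292 arrays of the 1g centrifuge and the ground; black bars are the spot medians and the dotted line is 50. The spots below 0, down to -1789 for let-7, all lie on the ground arrays in these 6 miRNAs.

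The miR-51 family is a broadly expressed group that is needed in embryos as a whole. Of its 6 members on the array, miR-52, miR-55 and miR-56 passed the filter, and 0 were called. MiR-55 was the brightest, at 355.5 and 256 on the centrifuge and 176 on both ground arrays. It was 2.02-fold higher in N2 and 1.45-fold higher in LS292. All 4 N2 centrifuge spots (203 to 411) exceeded the highest N2 ground spot, 201. The LS292 spots overlapped, at 156 to 388 against 119 to 278. Its fitted log2 difference was 0.31 (SE 0.21, limma adjusted p 0.512). It stayed positive under all 24 alternatives, several of which cannot move it, as for miR-84. The range ran from 0.028 without the N2 ground array to 1.10 with spot medians scaled to the bright probes.

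The other members of the family were dimmer and differed between the strains. MiR-56 read 111.5 on the centrifuge and 52.5 on the ground in N2, but 52 and 67 in LS292. MiR-52 read 76.5 and 54 in N2, but 36.5 and 53.5 in LS292. In N2 both were higher on the centrifuge, and in LS292 both were lower. The fitted differences were 0.056 for miR-56 (SE 0.09, adjusted p 0.772) and -0.0095 for miR-52 (SE 0.07, adjusted p 0.982). MiR-51, miR-53 and miR-54 reached at most 8 on the 4 arrays. The family's fitted differences had a median of 0.056, with 2 positive and 1 negative.

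**Figure D3:**
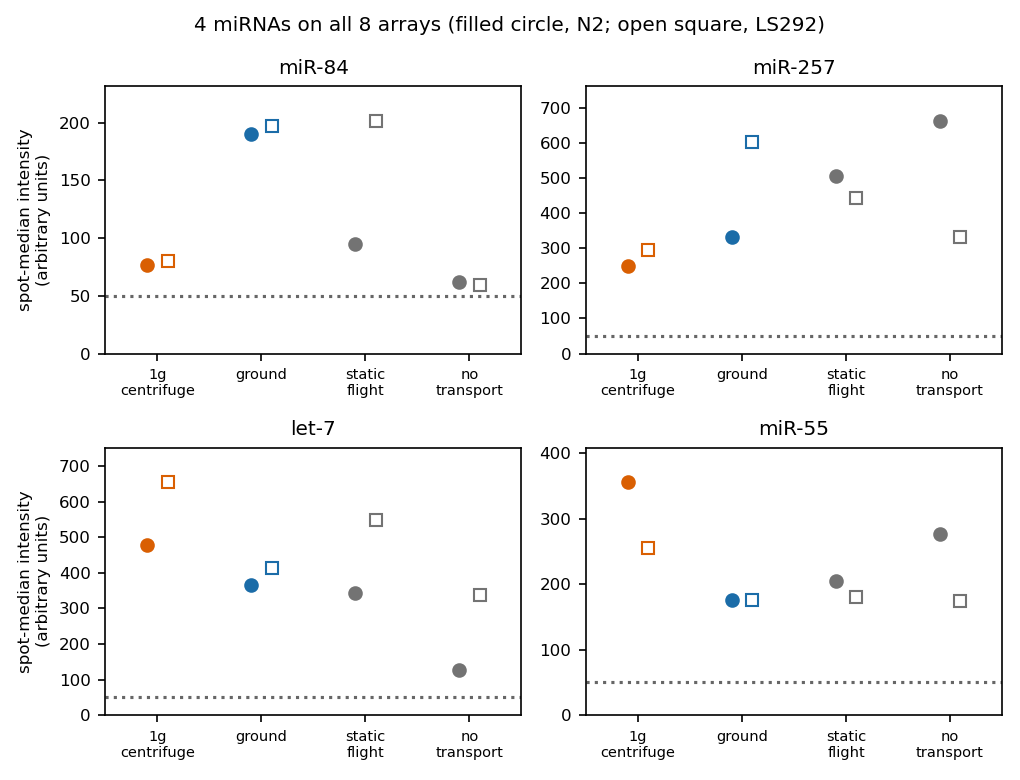
Spot-median intensity (y axis, arbitrary units) of miR-84, miR-257, let-7 and miR-55 in the 4 conditions of the series; filled circles are N2, open squares LS292, and the dotted line is 50. MiR-84 at 59.5 and 62 without transport lay nearer the centrifuge than the ground values, and miR-257 had its 2 lowest values on the centrifuge.

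The rest of the series showed where the ground or the centrifuge stood apart. For miR-84 the no-transport control, kept in an incubator, read 62 in N2 and 59.5 in LS292. Static flight, which adds microgravity to radiation (1.92 mGy), read 94.5 and 201.5. The ground values of miR-84 were thus matched by 1 other array, and its centrifuge values lay among the rest. For let-7 the other 4 arrays spanned 128 to 548.5, a range that took in the N2 centrifuge value and both ground values. For miR-55 they spanned 175 to 276.5, and the N2 centrifuge array alone lay above it. Both centrifuge arrays were above the 6 other arrays for miR-73, miR-81 and miR-255, and below them for miR-257 and miR-795. Margins were thin for miR-73 and miR-255, at 54 and 66.5 on the N2 centrifuge array against at most 50 and 58 elsewhere. For miR-795 the centrifuge values of 10 and 9 lay just under the lowest other value, 10.5. How many of all probes past the filter stood apart in this way was not counted. MiR-795 was below 50 on both centrifuge arrays. These positions were not tested.

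Single members of 3 further families were detected, each higher on the centrifuge in both strains. MiR-81 belongs to the miR-58 family, relatives of the fly growth regulator bantam. It read 185 and 242.5 on the centrifuge against 151.5 and 133.5 on the ground. That was 1.22-fold higher in N2 and 1.82-fold higher in LS292. The 2 N2 arrays each had a spot far below background, -576 and -1403. Limma gave a difference of 0.15 (SE 0.25, adjusted p 0.772), which turned to -0.085 with no normalization between arrays. Of the family, miR-58 and miR-80 reached at most 26.5 and 5.5, and miR-82 reached 72 on the N2 ground array and 26 or less on the other 3.

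MiR-237 shares the seed of lin-4, the first miRNA found and a timer of early larval stages. MiR-237 read 109 and 53.5 on the centrifuge against 43.5 and 38.5 on the ground, and lin-4 reached at most 7. In N2, 3 of 4 centrifuge spots lay above the highest ground spot, and the other was at -72. Its difference in the fit was 0.097 (SE 0.07, limma adjusted p 0.512), and it became -0.090 with median scaling to the named probes and -0.20 with no normalization between arrays.

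MiR-73, of the miR-72 family, was set apart by 1 array. It read 554.5 on the LS292 centrifuge array, against 54 in N2, and 27.5 and 18 on the ground. The only other array to reach the detection minimum was N2 without transport, at exactly 50. MiR-73 thus passed the filter only through the centrifuge arrays, and its higher values there follow in part from that selection. The 4 LS292 centrifuge spots were 90, 286, 823 and 1804, all above the highest LS292 ground spot of 21. Both ground values lay below the detection minimum, so with them raised to 50 the level was at least 11.1-fold higher in LS292 and at least 1.08-fold higher in N2. Limma put its difference at 0.36 (SE 0.19, adjusted p 0.512). It was 0.67 (adjusted p 0.0371) without the N2 centrifuge array and 0.043 (adjusted p 0.799) without the LS292 centrifuge array. Each of these leaves 1 centrifuge array, and the other conditions supply the spread. With the authors' normalized values it was called at 2.63 (SE 0.76, adjusted p 0.0192). Its adjusted p spanned 0.0192 to 0.900 across the alternatives. MiR-72 and miR-74 reached at most 3.5 and 1.

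MiR-1823 and miR-258 went in opposite directions in the strains. MiR-1823 read 180.5 on the centrifuge and 234.5 on the ground in N2, but 612 and 80 in LS292. The LS292 ratio was 7.65, and all 4 centrifuge spots (328 to 643) lay above the highest ground spot, 125. Of the 4 LS292 ground spots, which ran from -187, 2 lay on high local background, as did 1 of the 4 centrifuge spots. The LS292 ratio of miR-1823 was the highest of the 163 bright probes. In N2 the ratio was 0.770 and the spots overlapped, from 69 to 195 on the centrifuge and from -262 to 515 on the ground. Over both strains the fit gave 0.36 (SE 0.23, limma adjusted p 0.512), and 0.0050 without the LS292 centrifuge array.

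MiR-258 read 171.5 and 155.5 on the centrifuge, values close to each other, but 360.5 in N2 and 72 in LS292 on the ground. It was 2.10-fold lower on the centrifuge in N2 and 2.16-fold higher in LS292. No other of the 20 was 2-fold apart in opposite directions. Among the 412 named and unnamed probes, 29 (7.04%) were. The LS292 ground value was the median of spots from -442 to 144, of which 2 lay on high local background. Its fitted difference of -0.33 (SE 0.31, limma adjusted p 0.663) turned to 0.17 when arrays were scaled to the bright probes and to 0.16 without the N2 ground array. The difference between the strains was not tested for either miRNA, since each strain had 1 array per condition.

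**Figure D4:**
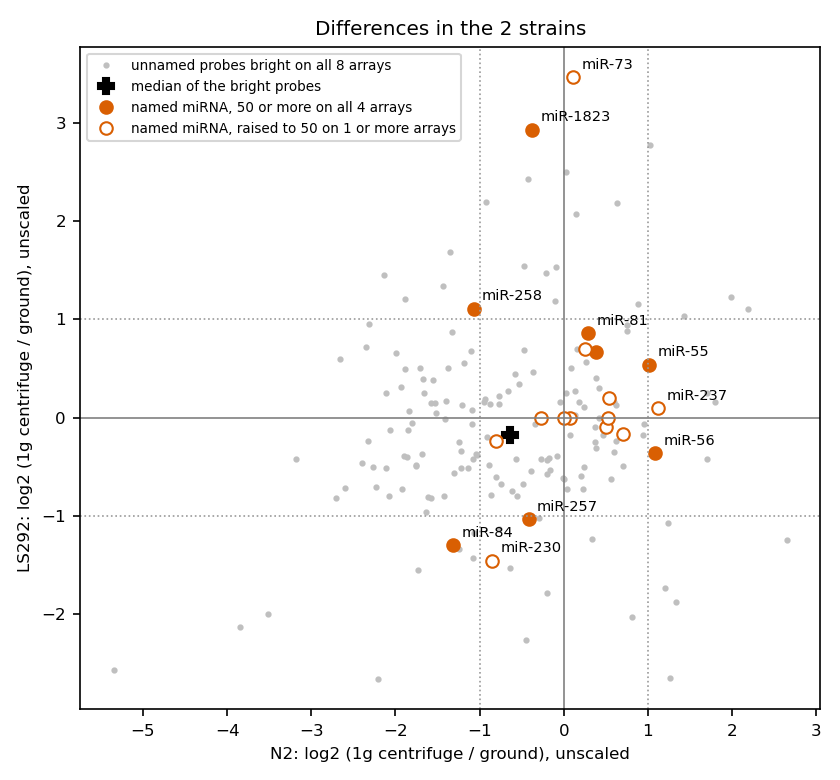
Log2 ratio of 1g centrifuge over ground in N2 (x axis) and LS292 (y axis) from unscaled spot medians, values under 50 raised to 50. Orange points are the 20 named miRNAs (open where any array was raised), grey points the 158 unnamed bright probes, the cross the median of all bright probes at -0.63 and -0.17, and dotted lines mark 2-fold; miR-84 is the 1 named miRNA past 2-fold the same way in both strains.

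Over the 20 miRNAs, with values under 50 raised to 50, 7 were higher on the centrifuge in both strains and 4 were lower in both. The strains disagreed in sign for 5, and for the remaining 4 the ratio was 1 in at least one strain. Those lower in both were miR-84, miR-257, miR-230 and miR-124. MiR-230 read 94.5 and 44.5 on the centrifuge against 170.5 and 137.5 on the ground. Both centrifuge values were below both ground values, with a fitted difference of -0.21 (SE 0.17, limma adjusted p 0.624) that turned to 0.028 without the LS292 ground array. MiR-124, the conserved miRNA of sensory and other neurons, read 54.5 and 44.5 on the centrifuge against 95.5 and 59 on the ground. Its fitted difference was -0.074 (SE 0.09, adjusted p 0.772), and 0.066 with arrays scaled to the bright probes. With that scaling of the spot medians, 8 miRNAs were higher in both strains and 2 were lower. Scaled to the named bright probes instead, 3 were higher in both and 4 were lower, so the balance depended on the scaling.

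Some miRNAs crossed the detection minimum between the conditions. MiR-73, miR-237 and miR-788 reached 50 on both centrifuge arrays and on neither ground array, which is 3 of 156. Over all 2301 named and unnamed probes the share was 0.826%. The reverse, 50 or more on both ground arrays and neither centrifuge array, held for 0 of 156 named probes and 0.478% of all probes. MiR-788 read 72.5 and 57.5 on the centrifuge against 23 and 18 on the ground, and in LS292 all 4 centrifuge spots lay above the 4 ground spots. Its fitted difference was 0.10 (SE 0.06, limma adjusted p 0.512), and it turned to -0.078 with median scaling to the named probes. The median named probe, most of them undetected, also read higher on the centrifuge, at 6.5 and 4.75 against -6.5 and -3. The control spike probes read higher there too, at 5 and 3 against -8 and -4. The part of such an offset in these crossings was not tested.

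The remaining 5 miRNAs lay near the detection minimum. MiR-255 read 66.5 and 81 on the centrifuge against 56 and -44.5 on the ground, with all 4 LS292 centrifuge spots above the LS292 ground spots. Those LS292 ground spots read -1351, -79, -10 and 26, and 2 of them lay on high local background, up to 1755. MiR-787 read 81.5 and 42 on the centrifuge against 49.5 and 56 on the ground. MiR-799 read 72 and 33 on the centrifuge against 34 and 32.5 on the ground. In these last 2, as in miR-1824 (52.5 and 30 against 18.5 and 26.5), the highest of the 4 values was on the N2 centrifuge array. MiR-796 read 32 and 36.5 on the centrifuge against 60.5 and 26.5 on the ground. Fitted differences of these 5 miRNAs ran from -0.041 to 0.16, with adjusted p from 0.512 to 0.982.

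**Figure D5:**
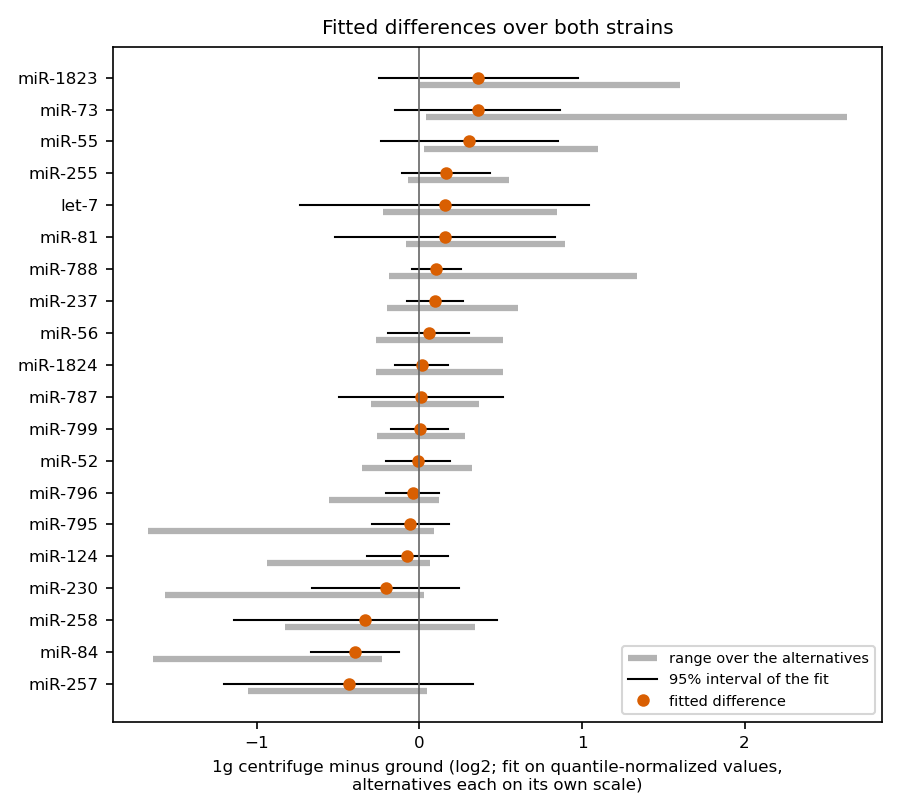
Fitted log2 difference of 1g centrifuge minus ground over both strains for each of the 20 miRNAs (orange points) with its 95% interval (black) and the range over the alternative settings (grey bars, each on its own scale). The interval of miR-84 lies below 0 before adjustment over the 20, and the grey bars of miR-84, miR-55, miR-73 and miR-1823 stay on one side of 0.

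Tissue and pathway markers of the worm were mostly undetected on these arrays, so the comparison says nothing of them. Several, such as lin-4, miR-1, miR-58 and miR-71, are known as abundant worm miRNAs. Probe names were taken from the files and not checked against sequence, which bears on every named value here. The muscle miRNA miR-1 reached at most 9 and the intestinal miR-60 at most 0.5. All 8 members of the miR-35 family, which marks embryos, lay below 50, with a highest value of 48 for miR-38 on the N2 ground array and 3.5 or less for the other 7. The stress and lifespan list had 0 of 7 members detected. In it miR-34, which is linked to the response to radiation in worms, reached at most 13.5, and miR-71, linked to lifespan, at most 2. The asymmetry miRNA lsy-6, made in a few neurons, read 101 on the N2 ground array and at most 25.5 on the other 3. Of the 10 lists, 5 held at least 1 detected member besides the neuronal one, and 0 of the members detected in any list were called.

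In the authors' normalized values each array was divided by the median of its 5 named probes that reached 50 on every array. On both centrifuge arrays that median was miR-257, at 248.5 and 294, so its normalized value there is exactly 1. On the ground the constants were 234.5, the value of miR-1823 in N2, and 197.5, that of miR-84 in LS292. In the authors' deposited table the fold of ground over centrifuge was 2.64 in N2 and 3.68 in LS292 for miR-84, and 1.41 and 3.05 for miR-257. On those values, 2 of 19 miRNAs with both folds were at least 2-fold lower on the centrifuge in both strains, miR-84 and miR-795, and 1, miR-788, was 2-fold higher. The share of all named and unnamed probes past 2-fold on that scale was not counted. MiR-795 and the ground values of miR-788 lay below 50.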

How the data were processed

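Per the labels' protocols, 1 ug of total RNA per sample received the Hy3 label before hybridisation to miRCURY arrays in 1 colour, and no sample was repeated. Per the file headers, the authors deposited the foreground intensity and the foreground-minus-background intensity of each of 10080 spots per array. Their normalized values are a ratio of the deposited spot-median intensity to 1 constant per array, left empty at 0 or less. The deposited fold columns are ratios of those values. No source used here names the scanner or image software.

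Limma 3.58.1 under R 4.3.3 corrected background (normexp, offset 50), the median of the log2 values of the 4 spots was taken, and the 156 named probes were quantile normalized. The median replaced the mean because single spots diverged widely. All 20 detected miRNAs are named, and p-values are Benjamini-Hochberg adjusted over them (3 residual degrees of freedom). The strain-by-condition interaction forms the residual, so p-values cover no spread beyond these arrays. Alternatives covered spots, background, scaling, filter, probes, arrays and prior. Scaling of spot medians to all bright probes was added after seeing the data. The comparison, its members, the lists and the settings were chosen with earlier results of these data known. All 20 names matched a RefSeq gene (WBcel235), and probe sequences were not used here.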

Additional observations from a re-analysis of the deposited data

Results flagged for a closer look

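Of the 8 miRNAs that reached 50 on all 4 arrays, 3 had opposite directions in the strains, and those differences between strains were not tested. As log2 ratios of the unscaled spot medians, centrifuge over ground, miR-56 was 1.09 in N2 and -0.37 in LS292, miR-258 was -1.07 and 1.11, and miR-1823 was -0.38 and 2.94. Each value rests on 2 arrays.

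Probes without a name, which the comparison of named miRNAs does not use, were also bright. Of 2145 such probes, 209 (9.74%) had a spot median of 50 or more on each of the 4 arrays, as did 8 of 156 named probes (5.13%). Empty spots had medians of -1.5 to 0 on these arrays. What the unnamed probes detect is not known here.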

How the results depend on the processing

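Each strain and condition had 1 array, many signals lay near background, and spots diverged; which of these limits precision most was not tested. The count of called miRNAs was 0 in the main fit and under most alternatives. It was 1 with the mean of spots (miR-257), 1 with the authors' normalized values (miR-73) and 2 with named and unnamed probes fitted together, both of them unnamed. Leaving out single arrays gave 0 to 1 calls, with miR-73 called without the N2 centrifuge array and miR-257 without the N2 ground array. Both calls compare an arm of 1 array, assumed to vary like the other conditions. The number of miRNAs 2-fold apart the same way in both strains was 1, but 3 with the authors' values, 0 when scaled to all bright probes and 0 with a minimum of 100. The causes were not tested.

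Of 460 fitted values under alternatives, 415 were counted as keeping their direction and side of the threshold. Another 4 gained a call and 41 changed sign, none of the latter past the threshold. The values counted as kept include some of miR-795, miR-796 and miR-1824 on scaled spot medians that were 0 to within rounding. Such values have no direction. MiR-84, miR-55, miR-73 and miR-1823 never changed sign. Under a changed filter, strain term or prior, or without arrays of the other conditions, the fitted difference equals the main one by design. Those values could not change direction. With no normalization between arrays miR-788 was -0.19, miR-56 -0.27, miR-255 -0.070, miR-799 -0.26, miR-1824 -0.27, miR-81 -0.085, miR-237 -0.20 and miR-787 -0.30. With median scaling to named probes miR-788 was -0.078, miR-56 -0.16, miR-799 -0.15, miR-1824 -0.16, miR-237 -0.090 and miR-787 -0.19. Scaling by all bright probes gave miR-124 0.066, miR-258 0.17, miR-52 0.12, miR-796 0.12 and miR-795 0.092, and 0.34 for miR-258 and 0.32 for miR-52 on spot medians. The mean of spots gave miR-56 -0.15 and miR-787 -0.051, and the authors' values miR-787 -0.18. MiR-52 was 0.0033 with named and unnamed probes and 0.092 with scaled spot medians. Leaving out each array in turn, miR-230 ran from -0.45 to 0.028, miR-56 from -0.060 to 0.17, miR-258 from -0.83 to 0.16, let-7 from -0.22 to 0.53, miR-52 from -0.056 to 0.037, miR-799 from -0.053 to 0.056, miR-1824 from -0.027 to 0.053, miR-257 from -0.92 to 0.047, miR-81 from -0.043 to 0.35, miR-795 from -0.12 to 0.013 and miR-787 from -0.12 to 0.14.

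Empty values of the authors' table were set to the array's value of an intensity of 50, above some values kept below 50.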
